A study of Mus musculus with 9 samples.

Results

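The NMDA receptor genes *Grin1*, *Grin2a*, *Grin2b*, *Grin2c*, *Grin2d* and *Grin3a*, the CaMKII genes *Camk2a*, *Camk2b* and *Camk2d* and the scaffold gene *Dlg4* were examined in embryonic mouse forebrain, 10 genes of the 55401 in the count table. The 10 genes were found by their symbols. They were chosen on earlier results of the same comparison of *Npas3* genotypes in the same embryos, so their differences between genotypes are given as a description and not as a test of the family. RNA came from bulk forebrain of female embryos at E16 to E17 on the C57BL/6J background, 5 wild-type embryos (*Npas3*+/+, WT) and 4 embryos with a constitutive heterozygous deletion of *Npas3* (*Npas3*+/-, HET). The labels write the WT genotype as Npas+/+. The WT embryos were littermates from crosses of HET mice with HET or C57BL/6J mice, and which embryos shared a litter is not given in the sources used here. The deletion is present in every cell, not in one cell type. All 10 genes passed the filter on low counts.

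The NMDA receptor is a glutamate-gated ion channel that lets calcium enter a neuron when glutamate and a co-agonist, glycine or D-serine, are bound and the membrane is depolarized. Each channel holds GluN1 subunits, which bind the co-agonist, together with GluN2 subunits, which bind glutamate, or GluN3 subunits. In forebrain, GluN2B and GluN2D are known as the early GluN2 subunits, and GluN2A becomes abundant after birth. Calcium that enters through the channel binds calmodulin and activates CaMKII, a kinase built of alpha, beta, gamma and delta subunits. PSD-95, the product of *Dlg4*, anchors the receptor at the synapse.

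Libraries held 42640218 to 62830060 counts. Levels were scaled to library size with edgeR's TMM method and are given as CPM, the count relative to the scaled total of its library, and as RPKM, CPM per kilobase of exon, where genes are compared with each other. *Npas3*, the deleted gene, was at 40.8, 35.4, 29.7, 38.3 and 37.0 CPM in WT embryos 5, 15, 16, 41 and 43. It was at 27.9, 28.2, 34.1 and 27.8 CPM in HET embryos 5, 6, 7 and 24, and the groups overlapped through WT embryo 16 and HET embryo 7, with a log2 fold change of −0.30 (edgeR adjusted p = 0.877). The labels name astrocytes as the cell type, yet genes of neurons were far more abundant than those of astrocytes: a list of 10 pan-neuronal genes summed to 5858 to 7139 CPM per embryo and a list of 8 astrocyte genes to 662 to 772 CPM. Genes of hindbrain and cerebellum summed to at most 1.82 CPM over 8 genes, with *Hoxa2*, *Hoxb2* and *Hoxb3* at 0 counts in each library. Choroid plexus RNA was unequal: its 8 marker genes summed to 2810, 2338 and 2888 CPM in WT embryos 15, 16 and 41, to 532 CPM in HET embryo 24 and to 18.9 to 43.6 CPM in the other 5 embryos.

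*Camk2b* and *Dlg4* had the highest mean levels of the 10 genes in the embryonic forebrain, and *Grin2b* the highest among the NMDA receptor genes. *Grin2a*, the GluN2 gene of mature forebrain, was the lowest of the 10. Per length of the union of annotated exons, *Camk2b* was highest, at 32.8 ± 6.41 RPKM (SD, n = 9), followed by *Dlg4* at 19.2 ± 2.13 RPKM. *Grin2b* followed at 5.75 ± 1.54 RPKM and *Camk2a* at 4.94 ± 1.96 RPKM. The levels of *Grin1*, *Grin2d* and *Camk2d* were 2.37 ± 0.50 RPKM, 1.46 ± 0.48 RPKM and 1.33 ± 0.38 RPKM. *Grin3a* was at 0.77 ± 0.31 RPKM, *Grin2c* at 0.68 ± 0.16 RPKM and *Grin2a* at 0.16 ± 0.07 RPKM.

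Each gene was set beside the next in this order within each embryo. Because the order was made from the same levels, these differences are a description with no test. In 6 of the 9 neighbouring pairs the gene placed higher was higher in 9 of 9 embryos. These were *Camk2b* over *Dlg4*, *Dlg4* over *Grin2b*, *Camk2a* over *Grin1*, *Grin1* over *Grin2d*, *Camk2d* over *Grin3a*, and *Grin2c* over *Grin2a*. *Grin2b* was above *Camk2a* by 0.27 ± 0.34 on the log2 scale (SD, n = 9), in 7 of 9 embryos. *Grin2d* was above *Camk2d* by 0.10 ± 0.41 on the log2 scale (SD, n = 9), in 7 of 9 embryos, and by 0.22 without HET embryo 5. *Grin3a* was above *Grin2c* by 0.10 ± 0.72 on the log2 scale (SD, n = 9), in 5 of 9 embryos. In these 3 pairs the difference was smaller than its SD over the embryos.

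The length used decides part of this order. *Camk2d* has 28 annotated transcripts whose exons cover 22493 bases together, while its longest coding transcript has 5524 bases, and it moved in the order from place 7 to place 5 with the second length. *Grin2b* has a union of 24842 bases and a longest coding transcript of 24060 bases, so its level hardly moved, at 5.94 RPKM. With the longest coding transcript as length *Grin1* was at 5.39 RPKM in place of 2.37 RPKM, and *Camk2a* was at 7.42 RPKM and above *Grin2b*. The mean of *Grin2b* stayed above that of *Grin1*. In WT embryos 16, 41 and 43 *Grin1* was higher, at 5.12, 6.03 and 5.37 RPKM against 3.20, 5.65 and 5.14 RPKM for *Grin2b*. In the HET embryos and in WT embryos 5 and 15 *Grin1* was lower. *Camk2b*, *Dlg4*, *Grin3a*, *Grin2c* and *Grin2a* kept their places, at 74.5, 40.3, 1.26, 0.70 and 0.19 RPKM. On the log2 scale, *Grin2d* was then at −1.63 relative to *Camk2d* and *Grin2b* at −0.27 relative to *Camk2a*, both turned from the order above. *Camk2a* over *Grin1* was 0.38 in place of 0.98, and *Grin3a* over *Grin2c* 0.77 in place of 0.10.

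**Figure D1:**
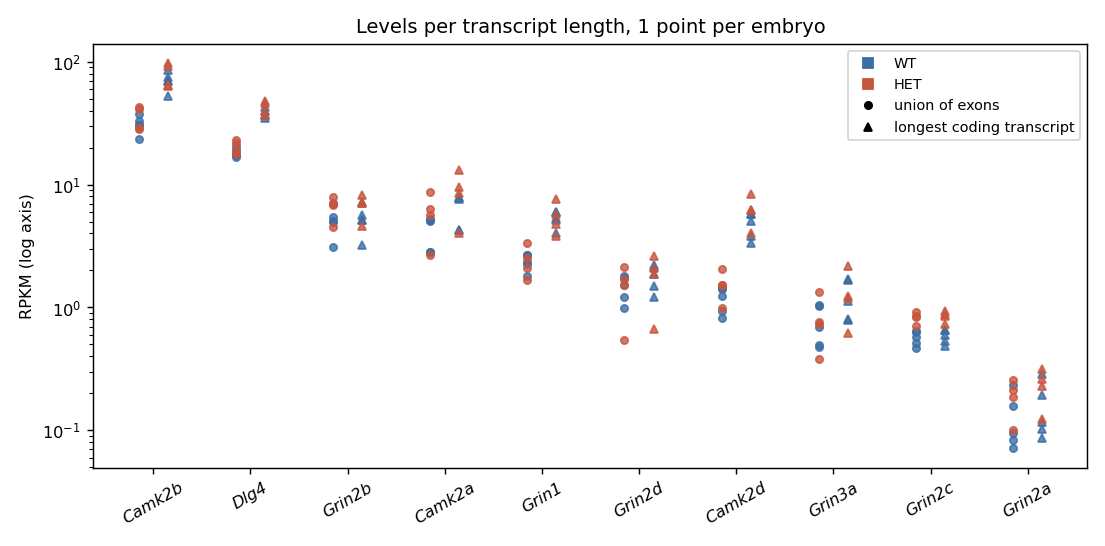
RPKM (log axis) of the 10 genes in each of the 9 embryos, WT in blue and HET in red, with circles for the union of exons and triangles for the longest coding transcript as length. *Camk2b* and *Dlg4* lie above the other genes and *Grin2a* below them with both lengths, while *Camk2d* moves from a mean of 1.33 to 5.41 RPKM.

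*Grin2b* made up most of the GluN2 transcripts in each embryo. Of the summed RPKM of *Grin2a*, *Grin2b*, *Grin2c* and *Grin2d*, its share was 66.1% to 74.2% over the 9 embryos. *Grin2d*, the other early GluN2 gene, held 9.03% to 22.1%, *Grin2c* held 5.99% to 15.1%, and *Grin2a* held 1.03% to 2.43%. The lowest share of *Grin2d* and the highest of *Grin2c* were both in HET embryo 5.

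The shares overlapped between the genotypes for each of the 4 GluN2 genes. The share of *Grin2b* was 70.0% ± 2.72 in the 5 WT embryos and 72.6% ± 1.25 in the 4 HET embryos (SD). For *Grin2d* it was 20.1% ± 1.87 in WT and 15.5% ± 4.52 in HET embryos, and 3 of the 4 HET embryos lay at 16.0% to 19.0%. The share of *Grin2c* was 8.19% ± 2.16 in WT and 9.80% ± 3.64 in HET embryos, and that of *Grin2a* 1.72% ± 0.56 and 2.05% ± 0.30. Without HET embryo 5 the mean HET share of *Grin2c* was 8.02%, below that of WT embryos. The level of *Grin2a* was 1.90%, 3.33%, 2.699%, 2.91% and 1.44% of that of *Grin2b* in WT embryos 5, 15, 16, 41 and 43. It was 2.23%, 2.71%, 3.24% and 3.12% in HET embryos 5, 6, 7 and 24, so the mature subunit gene was at most at 3.33% of the embryonic one with the union of exons as length.

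The CaMKII transcripts were mostly those of the beta and gamma subunits. *Camk2b*, whose product binds actin, made up 50.9% to 63.6% of the summed RPKM of the 4 CaMKII genes. *Camk2g*, the gamma subunit gene that is not among the 10 genes, made up 25.1% to 34.5%. *Camk2a*, the alpha subunit gene known for its high level in postnatal forebrain neurons, made up 5.41% to 12.2%, and *Camk2d* 1.58% to 3.10%. The share of *Camk2a* was 8.12% ± 2.58 in the 5 WT embryos and 9.71% ± 3.13 in the 4 HET embryos (SD), and it was lowest in WT embryos 16 and 43 and HET embryo 5, at 5.41% to 5.67%. With the longest coding transcript as length, *Camk2b* held 64.5% of the CaMKII transcripts in WT and 64.6% in HET embryos, while the share of *Camk2d* was 4.44% in WT and 5.002% in HET embryos in place of 2.27% and 2.56%.

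**Figure D2:**
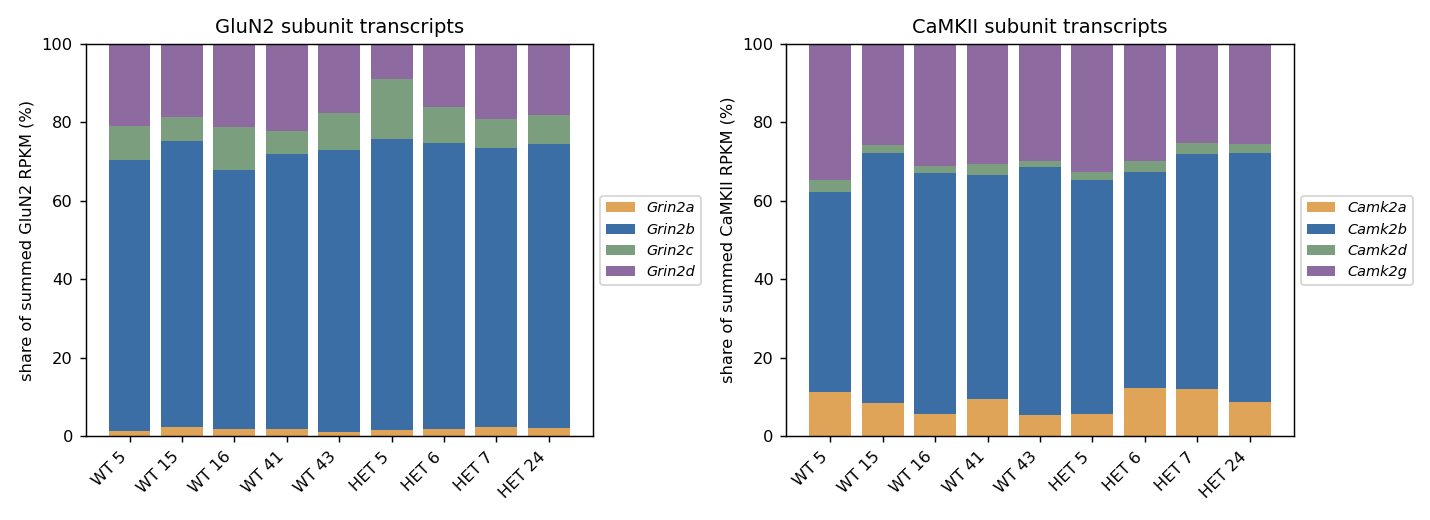
Share (%) of each gene in the summed RPKM of the GluN2 genes (left) and the CaMKII genes (right), 1 stacked bar per embryo. *Grin2b* fills 66.1% to 74.2% of each GluN2 bar and *Camk2b* 50.9% to 63.6% of each CaMKII bar. The smallest *Grin2d* share, 9.03%, is in HET embryo 5.

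The comparison of HET with WT embryos asked which transcripts differ when 1 copy of *Npas3* is missing. In edgeR's quasi-likelihood test over 17818 genes, 0 of the 10 genes were called at an adjusted p under 0.05. Of all genes tested, 0.0281% were called higher and 0.112% lower in HET. *Grin2c* had the smallest unadjusted p of the 10 genes in this edgeR test, 0.0020. With DESeq2, 1 of the 10 was called higher, again *Grin2c*, where 0.0953% of the 22039 genes with an adjusted p were called higher. The fitted log2 fold change was above 0 for 10 of the 10 genes, and for 48.5% of all genes tested. Its median was 0.27 over the 10 genes and −0.005 over all genes tested. Because these genes were chosen with this comparison known, none of these counts is a result about the family. In bulk tissue, fewer cells of a type and less RNA per cell cannot be told apart.

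*Grin2c* (ENSMUSG00000020734, minus strand of chromosome 11 from 115249169 to 115267243 on GRCm38) encodes GluN2C, a subunit best known from granule cells of the adult cerebellum. It had 119 to 213 counts per embryo. Its level was 3.22, 2.92, 2.59, 2.36 and 3.20 CPM in WT embryos 5, 15, 16, 41 and 43. In HET embryos 5, 6, 7 and 24 it was 4.61, 4.33, 4.195 and 3.59 CPM. Each HET embryo thus lay above each WT embryo, which held for 1 of the 10 genes and for 0.786% of all genes tested. The log2 fold change of 0.55 had a standard error (SE) of 0.14, and its adjusted p was 0.443 by edgeR and 0.0422 by DESeq2. HET embryo 24, the lowest HET embryo, had choroid plexus RNA, as did WT embryos 15, 16 and 41, which were the 3 lowest of the 5 WT embryos. When a choroid plexus score (mean log2 CPM over the 8 markers) entered the fit as a covariate, the difference was 0.44 (edgeR adjusted p = 0.639), and without these 4 embryos it was 0.45 (edgeR adjusted p = 0.999). The fit without them set only WT embryos 5 and 43 against HET embryos 5, 6 and 7.

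*Grin1* (ENSMUSG00000026959, minus strand of chromosome 2 from 25291181 to 25319187) encodes the subunit that each NMDA receptor needs. Its level was 17.4, 25.8, 21.9, 25.8 and 22.9 CPM in WT embryos 5, 15, 16, 41 and 43. In HET embryos 5, 6, 7 and 24 it was 16.3, 20.3, 32.4 and 24.7 CPM. The HET embryos held both the lowest and the highest value, so the groups overlapped fully. The log2 fold change of 0.04 (SE 0.18, edgeR adjusted p = 0.977) was well within the spread between embryos. It turned to −0.15 without HET embryo 7 and to −0.04 without WT embryo 5. Exons of the opposite-strand gene *Grin1os* cover 13.5% of the exonic bases of *Grin1*, and whether the counting used strand is not given in the sources used here, so part of its counts is uncertain.

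The bases upstream of the start are given here for *Grin1* and *Grin2c*. NPAS3 is a bHLH-PAS factor, and the authors name the E-box, CANNTG, as its consensus site. These letters read as an E-box on both strands. They were searched in the 250 bases before the start of each gene in RefSeq's table on GRCm38.p6. The sequences of both are shown, in gene direction, because *Grin2c* was the one gene whose groups did not overlap and *Grin1* is the subunit common to all receptors. Capitals mark each CANNTG match.
*Grin1*, chr2:25319188-25319437, minus strand: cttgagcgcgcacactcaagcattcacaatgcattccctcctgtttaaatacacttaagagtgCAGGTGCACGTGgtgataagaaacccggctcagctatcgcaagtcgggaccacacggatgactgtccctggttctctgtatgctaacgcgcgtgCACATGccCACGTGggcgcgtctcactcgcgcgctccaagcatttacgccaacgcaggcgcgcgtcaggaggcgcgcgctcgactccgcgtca
*Grin2c*, chr11:115267244-115267493, minus strand: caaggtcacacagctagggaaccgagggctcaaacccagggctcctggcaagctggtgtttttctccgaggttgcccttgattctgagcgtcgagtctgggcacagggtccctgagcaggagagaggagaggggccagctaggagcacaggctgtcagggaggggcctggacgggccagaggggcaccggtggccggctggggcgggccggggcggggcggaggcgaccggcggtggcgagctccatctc
The *Grin1* window held 4 matches and the *Grin2c* window 0. Because *Grin2c* was picked on its values, these counts are no result about the genotypes. Of the 32851 windows in the table, 66.2% held at least 1 match. Windows were listed for 6 of the 10 genes, 8 windows in all, and 3 of the 8 held a match, those of *Grin1*, *Grin2d* and 1 of *Dlg4*. A match is a stretch of letters and not a measured binding site.

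*Grin2b* (ENSMUSG00000030209, minus strand of chromosome 6 from 135713233 to 136173511), the main embryonic GluN2 gene, had 3542 to 9588 counts per embryo. Its level was 124, 175, 77.0, 136 and 124 CPM in WT embryos 5, 15, 16, 41 and 43. In HET embryos 5, 6, 7 and 24 it was 112, 171, 198 and 170 CPM. WT embryo 16 was the lowest, and 3 of the 4 HET embryos lay above 4 of the 5 WT embryos. The log2 fold change was 0.36 (SE 0.21, edgeR adjusted p = 0.911) and ranged from 0.22 to 0.50 in the fits that left out 1 embryo.

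*Grin2a* (ENSMUSG00000059003, minus strand of chromosome 16 from 9567898 to 9995560) had 58 to 224 counts per embryo. Its level was 1.71, 4.202, 1.501, 2.85 and 1.28 CPM in WT embryos 5, 15, 16, 41 and 43. In HET embryos 5, 6, 7 and 24 it was 1.80, 3.35, 4.63 and 3.82 CPM. Among the 10 genes it had the highest coefficient of variation over the 9 embryos, 45.4%, and its highest value was 3.61 times its lowest. Its log2 fold change of 0.56 was as large as that of *Grin2c* but had an SE of 0.37 (edgeR adjusted p = 0.911), and the groups overlapped. On the log2 scale the fold change was 1.13 without the 4 embryos with choroid plexus RNA (edgeR adjusted p = 0.999). That fit set WT embryos 5 and 43 against HET embryos 5, 6 and 7 and left out WT embryo 15, the highest WT embryo. The fold change was 0.31 with the mean log2 CPM of the pan-neuronal list as a covariate. It was 0.38 to 0.89 when 1 embryo was left out, lowest without HET embryo 7 and highest without WT embryo 15.

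*Grin2d* (ENSMUSG00000002771, minus strand of chromosome 7 from 45831883 to 45878378), an early GluN2 gene known from interneurons, was at 6.63 to 11.97 CPM in WT embryos. In HET embryos 5, 6, 7 and 24 it was at 3.64, 10.1, 14.2 and 11.4 CPM. Both extremes of the 9 embryos were therefore HET, and the log2 fold change was 0.02 (SE 0.32, edgeR adjusted p = 0.994). *Grin3a* (ENSMUSG00000039579, minus strand of chromosome 4 from 49661611 to 49845744) encodes GluN3A, which lowers the calcium flow of receptors that hold it. Its WT levels ran from 5.87 to 12.8 CPM, against 4.68, 8.97, 16.3 and 9.31 CPM in HET embryos 5, 6, 7 and 24. Its log2 fold change was 0.10 (SE 0.34, edgeR adjusted p = 0.970). The fold changes of *Grin2d* and *Grin3a* turned below 0 without WT embryo 16, without WT embryo 43 and without HET embryo 7, and that of *Grin2d* also without HET embryo 24. Exons of the opposite-strand gene *Gm45441* cover 9.66% of the exonic bases of *Grin2d*. *Grin3b*, the remaining NMDA receptor gene, had 55 to 82 counts per embryo, and exons of *Tmem259* on the opposite strand cover 32.1% of its exonic bases, so its level of 1.32 ± 0.25 CPM in the 5 WT embryos and 1.52 ± 0.13 CPM in the 4 HET embryos (SD) is uncertain.

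*Camk2a* (ENSMUSG00000024617, plus strand of chromosome 18 from 60925618 to 60988152) was at 39.1, 37.8, 21.03, 38.3 and 21.04 CPM in WT embryos 5, 15, 16, 41 and 43. In HET embryos 5, 6, 7 and 24 it was at 19.9, 47.5, 64.7 and 42.5 CPM. HET embryo 5 was the lowest of all and the other HET embryos were the 3 highest. The log2 fold change was 0.47 (SE 0.31, edgeR adjusted p = 0.911), smaller than the spread among HET embryos, in which HET embryo 7 had 3.25 times the level of HET embryo 5. It was 0.22 without HET embryo 7 and 0.71 without HET embryo 5.

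*Camk2b* (ENSMUSG00000057897, minus strand of chromosome 11 from 5969644 to 6066362) had WT levels of 213 to 344 CPM and stood at 257, 261, 390 and 373 CPM in HET embryos 5, 6, 7 and 24. Its log2 fold change was 0.18 (SE 0.16, edgeR adjusted p = 0.912). It was 0.092 without WT embryo 5, 0.073 without HET embryo 7 and 0.097 without HET embryo 24. *Camk2d* (ENSMUSG00000053819, plus strand of chromosome 3 from 126596302 to 126846326), the delta subunit gene, had WT levels of 18.5 to 32.1 CPM and stood at 22.1, 34.3, 46.0 and 34.4 CPM in HET embryos. HET embryo 5 was the lowest HET embryo and the other HET embryos were the 3 highest of all, as for *Camk2a*. For *Camk2d* the log2 fold change was 0.37 (SE 0.21, edgeR adjusted p = 0.911). Without HET embryo 7 it was 0.20. *Camk2g* varied little, at 100.5 ± 3.08 CPM in the 5 WT embryos and 104 ± 7.69 CPM in the 4 HET embryos (SD). The fold change was 0.06 on the log2 scale (SE 0.06, edgeR adjusted p = 0.924).

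*Dlg4* (ENSMUSG00000020886, plus strand of chromosome 11 from 70016942 to 70047522) was the steadiest of the 10 genes, with a coefficient of variation of 11.1% over the 9 embryos. It was at 272, 252, 222, 231 and 235 CPM in WT embryos 5, 15, 16, 41 and 43 and at 235, 253, 303 and 290 CPM in HET embryos 5, 6, 7 and 24. The 2 highest values were HET, and the groups overlapped. Its log2 fold change was 0.16 (SE 0.09, edgeR adjusted p = 0.911).

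**Figure D3:**
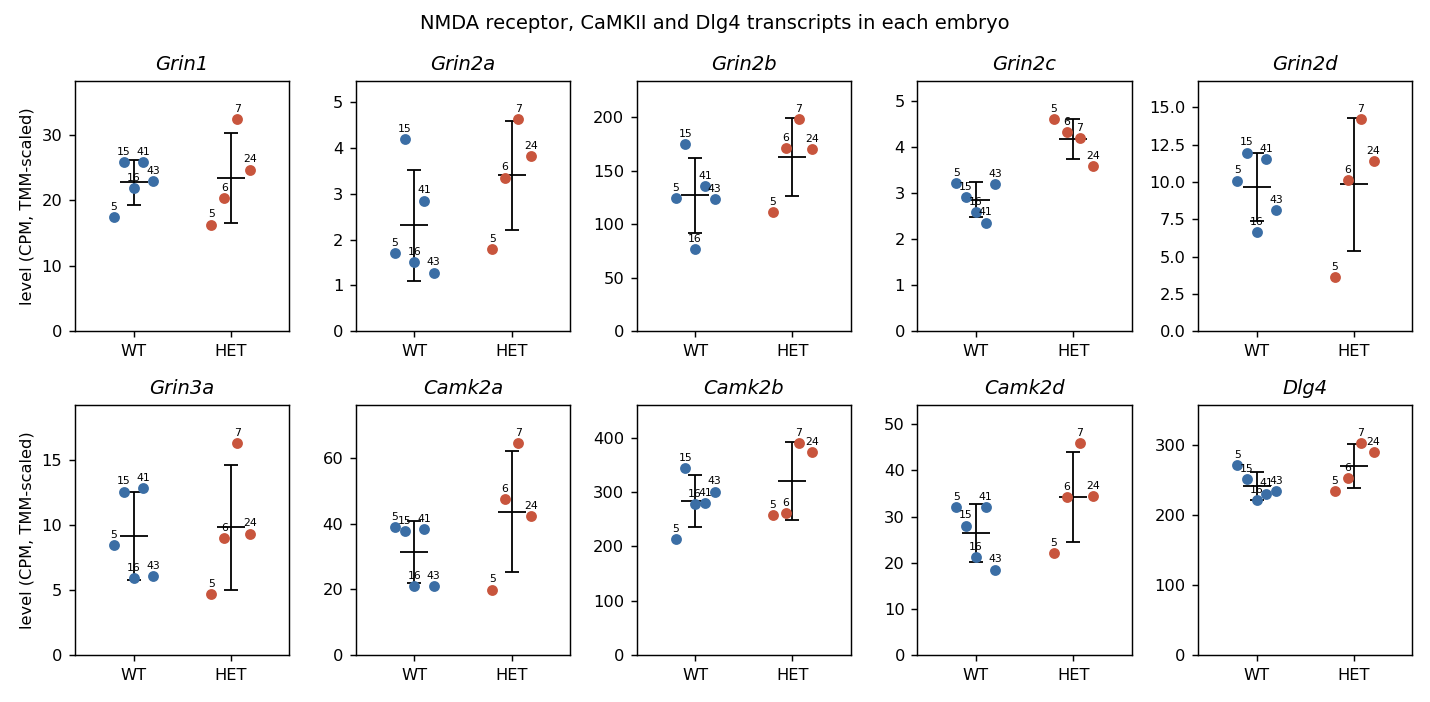
Level (CPM) of each of the 10 genes in the 5 WT (blue) and 4 HET (red) embryos, 1 point per embryo with its number, and the mean ± SD in black. The groups separate for *Grin2c* alone among the 10 genes, and HET embryo 7 is the highest embryo for the other 9.

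Embryo 7 of the HET group had the highest level of 9 of the 10 genes, and HET embryo 5 the lowest level of 4 of them, *Grin1*, *Grin2d*, *Grin3a* and *Camk2a*. The highest *Grin2c* level was in HET embryo 5. The same embryos stood at the ends of several cell type marker lists. The list of 10 GABAergic and striatal neuron genes summed to 555 CPM in HET embryo 7 and 244 CPM in HET embryo 5, the highest and lowest of the 9 embryos, against 408 and 428 CPM in HET embryos 6 and 24. In WT embryos 5, 15, 16, 41 and 43 it summed to 549, 441, 293, 509 and 325 CPM, and WT embryos 16 and 43, the lowest of these, were also the 2 lowest WT embryos for *Camk2a*, *Camk2d*, *Grin2a*, *Grin2b*, *Grin2d* and *Grin3a*. The pan-neuronal list was highest in HET embryo 7, at 7139 CPM, and the list of 9 neural progenitor genes was lowest there, at 2267 CPM. WT embryo 5, with the highest progenitor sum of 3499 CPM, had the lowest *Camk2b* level and the lowest *Grin1* level of the WT embryos.

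When a pan-neuronal score (mean log2 CPM over those 10 genes) entered the fit, the median log2 fold change of the 10 genes was 0.14 in place of 0.27 and 7 of the 10 were above 0. That of *Grin2c* was 0.58 in this fit (edgeR adjusted p = 0.280), while *Grin1*, *Grin2d* and *Grin3a* were at −0.12, −0.34 and −0.23. The score is itself made of neuronal transcripts, so this fit cannot tell the number of neurons from their RNA per cell. With the choroid plexus score in the fit the median was 0.36, and without the 4 embryos with choroid plexus RNA it was 0.40, with 10 of the 10 above 0 in both fits. Without HET embryo 7 the median was 0.15, with 7 of the 10 above 0.

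**Figure D4:**
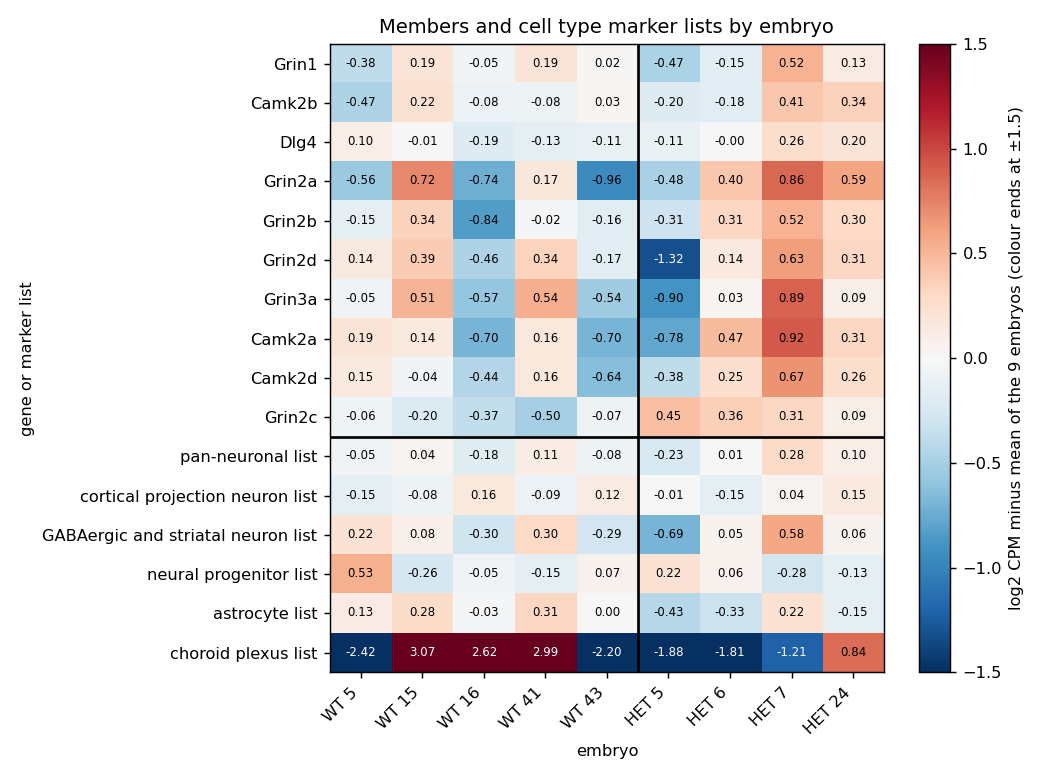
Log2 CPM of each gene and mean log2 CPM of 6 marker lists in each embryo, minus the mean over the 9 embryos, with the colour scale ending at ±1.5. HET embryo 7 is above the mean for each of the 10 genes, HET embryo 5 is below it for 9 of them, and the choroid plexus list sets WT embryos 15, 16 and 41 and HET embryo 24 apart.

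**Figure D5:**
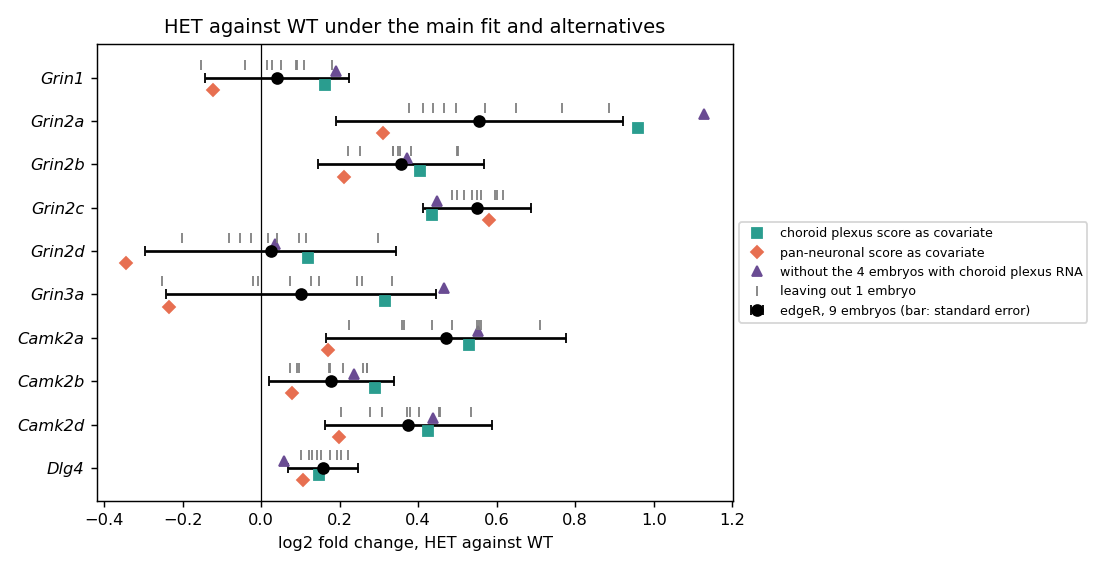
Log2 fold change of each gene in HET against WT embryos (black point with standard error), with 2 covariates, without 4 embryos and with each embryo left out in turn (grey ticks). *Grin2c* stays between 0.44 and 0.62 in these fits, and *Grin1*, *Grin2d* and *Grin3a* lie on both sides of 0.

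The genes whose levels followed each gene most closely over the 9 embryos were ranked by the Pearson correlation of log2 CPM after the mean of each genotype was subtracted, among 14371 genes. They were chosen as the highest of many and share libraries and tissue makeup, so the values are a description. *Grin1* was followed by *Prkcz*, an atypical protein kinase C gene, at 0.99, and *Syt16* was also among its closest genes. *Grin3a* was followed by *Pex5l* at 0.998, *Rab9b* and *Ccdc85a*, and *Grin2d* by *Gm28800* at 0.99, *Atg16l2* and *Rims4*, a gene of the presynaptic release machinery. *Camk2a* was followed by *Kcnf1*, a potassium channel subunit gene, at 0.99, then by *Cpne5* and *Vsnl1*, which encodes a neuronal calcium sensor. *Camk2b* was followed by *Gramd2*, *Bmerb1* and *Rgs6*, *Camk2d* by *Tafa5*, *Zcchc12* and *Slc25a12*, and *Dlg4* by *Ncs1*, another neuronal calcium sensor gene, *Pou2f2* and *Elavl3*. *Grin2a* was followed by *Ppm1h* at 0.98, *Lrrc10b* and *She*, and *Grin2b* by *Greb1l* at 0.98, *Dgkh* and *Cnnm2*. The closest genes to *Grin2c*, *Trappc9*, *Gm15619* and *Sgtb*, reached 0.88 to 0.89. The coefficient of variation of *Grin2c* was 13.2% in WT and 10.3% in HET embryos. It had 119 to 213 counts per embryo, which limit the precision of its level.

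The partners of the receptor and of CaMKII were described through 6 lists written from their known roles. By edgeR 0 of their tested genes were called in either direction, where 0.0281% of all genes tested were called higher and 0.112% lower. DESeq2 called 1 of them, higher in HET, where it called 0.0953% of 22039 genes higher. Of all genes tested by edgeR, 48.5% had a log2 fold change above 0. Genes of a list share libraries and tissue makeup, so the counts above 0 are a description with no test. Among 15 postsynaptic scaffold genes, 14 had a log2 fold change above 0, with a median of 0.12. The most abundant were *Dlgap4* and *Shank1*, at log2 fold changes of 0.06 and 0.26, and the largest was that of *Shank3*, at 0.29 (edgeR adjusted p = 0.911). Of 9 genes of receptor transport and assembly, 6 were above 0. *Lin7c* and *Ephb2* were the most abundant, at −0.04 and 0.19. *Neto1*, an auxiliary protein gene of glutamate receptors, had the largest fold change of this list, −0.76 (SE 0.27, edgeR adjusted p = 0.907), with 39.0 ± 12.4 CPM in the 5 WT embryos and 23.1 ± 8.68 CPM in the 4 HET embryos (SD).

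Of 13 genes of calmodulin, the CaMK family and their binding proteins, 9 were above 0, with a median log2 fold change of 0.07. *Calm2*, which encodes calmodulin, was at 979 ± 89.6 CPM in WT embryos (SD, n = 5) and had a log2 fold change of 0.01. *Pcp4*, which encodes a small calmodulin-binding protein, was at 36.0 ± 1.88 CPM in the 5 WT embryos and 46.5 ± 2.69 CPM in the 4 HET embryos (SD), and the groups did not overlap. Its log2 fold change was 0.37 (SE 0.06, adjusted p = 0.0733 by edgeR and 0.000438 by DESeq2), and it was named after its values were seen, as the 1 gene of these lists that DESeq2 called. *Nrgn*, which encodes neurogranin, another calmodulin-binding protein of the postsynapse, had the largest fold change of the list, 0.76 (SE 0.29, edgeR adjusted p = 0.908).

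Of 16 genes of kinases and phosphatases that act on the receptor, 12 were above 0, with a median log2 fold change of 0.05. *Cdk5r1* and *Ppp3cb*, the most abundant, were at 0.05 and 0.09, and *Prkcb* had the largest, 0.44 (edgeR adjusted p = 0.911). Of 8 genes of glycine and D-serine handling, 7 were tested and 2 were above 0. *Psat1*, an enzyme of serine synthesis, and *Slc1a4*, a neutral amino acid transporter, were at −0.08 and 0.06, and *Slc7a10*, a transporter of glycine and D-serine, had the largest fold change, −0.78 (SE 0.31, edgeR adjusted p = 0.908). Of 8 genes of signalling downstream of the receptor, 6 were above 0. *Creb1*, a transcription factor gene, was at −0.01, and *Nos1*, neuronal nitric oxide synthase, which PSD-95 holds near the receptor, had the largest, 0.31 (SE 0.12, edgeR adjusted p = 0.908).

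The marker lists set the cell types beside these values. By edgeR 0 of their genes were called, and DESeq2 called 1, the astrocyte water channel gene *Aqp4*, at a log2 fold change of −1.63 (adjusted p = 0.0310 by DESeq2 and 0.555 by edgeR). Over all genes, DESeq2 called 63 of the 22039 with an adjusted p lower in HET. The median log2 fold change was 0.06 for the pan-neuronal list, 0.02 for cortical projection neurons, 0.13 for GABAergic and striatal neurons and −0.04 for neural progenitors. It was −0.07 for astrocytes, −2.89 for choroid plexus, 0.12 for microglia, −0.21 for endothelium, 0.25 for the oligodendrocyte lineage and 0.04 for red blood cells. None of the 8 hindbrain and cerebellum genes passed the filter on low counts. The cortical projection neuron list summed to 1855 to 2353 CPM in WT and to 1800 to 2040 CPM in HET embryos, and its highest sum was in WT embryo 16, which had the lowest *Grin2b* and *Dlg4* levels of the 9 embryos. The part of cell makeup in the levels of the 10 genes was not tested. The fits with a pan-neuronal or choroid plexus score cannot separate cell number from RNA per cell. The age of each embryo is given only as the range E16 to E17, so the part of embryo age was not tested either.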

How the data were processed

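Forebrain RNA of 5 WT and 4 HET embryos was captured by poly(A), made into TruSeq libraries and sequenced. The authors aligned one read of each pair to GRCm38.p6 with STAR 2.7.9a, counted reads per gene with featureCounts and tested genotypes with DESeq2. The deposited values are raw counts per gene for 55401 genes, and strand handling is not given in the sources used here.

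Genes passing edgeR's filterByExpr (minimum count 10) were scaled by TMM, and a quasi-likelihood test in edgeR 4.0.16 (R 4.3.3) contrasted the genotypes, without covariates and with Benjamini-Hochberg adjustment over all genes at a threshold of 0.05. Tests were checked on simulated data. Levels and shares were computed with Python 3.11.15 and numpy 2.4.6. Exact permutation p-values between neighbours in the order of levels were planned and are not printed, since the order came from the same levels. DESeq2 1.42.0, limma 3.58.1, other scalings and filters, covariates and fits without embryos were alternatives. RPKM used exon lengths of GENCODE M21 on GRCm38, which lists 55141 of the identifiers and is another release than the one the authors counted with. Upstream sequences came from RefSeq on GRCm38.p6.

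The 10 genes, the lists and the tests were chosen with earlier results of these data known. The genes named were the 10, *Grin3b*, *Camk2g*, *Npas3*, the 3 closest genes of each and, in each pathway list, the 2 of highest mean CPM and the one of largest fold change. The same rule covers marker lists, for which only list values are printed, except where a gene is singled out. Some genes that the rule names are not reported here. No pair of embryos had identical counts. Reads carry no molecular identifiers, so depth gives counting error only. The p-values set the difference between genotypes against the spread between these embryos. They treat the embryos as independent, although which of them shared a litter is not known.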

Additional observations from a re-analysis of the deposited data

How the results depend on the processing

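None of the 10 genes was called by edgeR or limma in any setting run, and DESeq2 called 1, *Grin2c*. Over all genes, the calls were 5 higher and 20 lower in HET by edgeR, 21 and 63 by DESeq2, 2 higher with the choroid plexus score, 35 lower with the pan-neuronal score, and 3 and 12 without the 4 embryos with choroid plexus RNA. Leaving out 1 embryo gave 0 to 5 higher and 13 to 20 lower. Fold changes turned below 0 for *Grin1*, *Grin2d* and *Grin3a* alone. Without 1 embryo they spanned −0.15 to 0.18, −0.20 to 0.30 and −0.25 to 0.33 on the log2 scale, with the pan-neuronal score they were −0.12, −0.34 and −0.23, and limma-voom gave −0.11 for *Grin2d*. Without 1 embryo, *Grin2b* over *Camk2a* spanned 0.21 to 0.32, *Grin2d* over *Camk2d* 0.043 to 0.22, and *Grin3a* over *Grin2c* −0.037 (without WT embryo 41) to 0.27. With the longest coding transcript as length these were −0.27, −1.63 and 0.77, and *Camk2a* over *Grin1* was 0.38. The shares then were 2.35% for *Grin2a* in HET, 67.3% and 70.3% for *Grin2b* in WT and HET, 22.9% for *Grin2d* in WT, 64.6% for *Camk2b* in HET, 4.44% and 5.002% for *Camk2d*, and 25.2% and 23.4% for *Camk2g*. DESeq2 called 1 pathway gene and 1 marker gene where edgeR called 0. No paired analysis was possible because which embryos shared a litter is not given in the sources used here. The number 5 names an embryo in each group and is not known to pair them. The 58 to 224 counts of *Grin2a* and the 119 to 213 of *Grin2c* per embryo limit the precision of their levels.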
